A study of Homo sapiens with 6 samples.

Results

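The genes of the integrin and laminin families, with EDIL3, MFGE8 and DAG1, were examined in Hep3B cells, a human hepatocellular carcinoma cell line. Their symbols define the set, as the integrin α genes, the integrin β genes 1 to 8 and the laminin α, β and γ genes of the deposited count tables. The 40 genes reported, of 23228 in all, comprise 18 for integrin α subunits, 8 for integrin β subunits and 11 for laminin chains beside those 3. RNA was sequenced in 3 control libraries, whose cells carried a control shRNA without a target, and in 3 PELP1-KD libraries, whose cells carried an shRNA against PELP1, a coregulator of nuclear receptors. All cells came from the same line, were grown in RPMI, received lentiviral particles and were selected with puromycin as pooled stable clones, so the libraries of a group are not known to come from separate transductions and p values measure the spread between these libraries. Titles name the first PELP1 shRNA, whereas the treatment text names a pair of them, and the labels disagree on the RNA kit and on mRNA selection against rRNA removal.

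Integrins are receptors of the cell surface, each built from 1 α and 1 β subunit, that bind the extracellular matrix outside the cell and connect to actin or to intermediate filaments inside it. Laminins are secreted trimers of 1 α, 1 β and 1 γ chain that form the sheet of the basement membrane. Dystroglycan, the product of DAG1, is a laminin receptor outside the integrin family, and EDIL3 and MFGE8 are secreted proteins that present the RGD tripeptide to integrins with the αV subunit. Hepatocytes in normal liver face a matrix with little laminin, and epithelial tumor cells commonly make their own.

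Reads on genes numbered 26758363 to 34456542 per library, and 14537 genes passed the filter on low counts. All 8 hepatocyte markers examined passed it, and their sum was 795960 to 808706 normalized reads (counts divided by the library's relative size) in control and 684513 to 698801 in PELP1-KD. Of these, 6 were called lower, among them ALB (65.4% of control), and AFP (154%) and HNF4A (118%) were called higher. Of 5 endothelial markers, CDH5, KDR and TEK had 0 reads in all 6 libraries, VWF had at most 3, and PECAM1 had 52 to 74 and was not called. The summed level of 7 fibroblast markers was 1319 to 1360 normalized reads in control and 1967 to 2002 in PELP1-KD, although DCN and ACTA2 had means of at most 5.04 in either group. PELP1 itself, the targeted gene, had 4893, 4914 and 5102 normalized reads in control and 4421, 4825 and 4840 in PELP1-KD, so the labelled libraries retained 94.5% of the control level (log2 fold change −0.08 with a standard error, SE, of 0.04 and an adjusted p of 0.101 in edgeR's quasi-likelihood test). Since the targeted RNA was not called lower, PELP1-KD below means the libraries labelled so. The paper reports less PELP1 protein on Western blots of its Hep3B knockdown cells, and RNA counts do not measure protein. In bulk RNA, fewer cells with a transcript and less of it per cell cannot be told apart.

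Of the 40 genes, 28 passed the filter and were tested. The other 12 comprised 8 integrin genes (ITGA4, ITGA8, ITGA10, ITGA11, ITGAD, ITGAX, ITGB2 and ITGB7) and 4 laminin genes (LAMA1, LAMA2, LAMB4 and LAMC3), none of which had more than 10 reads in any library. ITGA8, ITGAD and LAMA1 had 0 reads in all 6 libraries, which allows up to 3 reads in each by counting error. At an adjusted p below 0.05 from edgeR, 13 of the 28 tested genes (46.4%) were higher in PELP1-KD, where 26.8% of all tested genes were, and 5 (17.9%) were lower, where 26.7% of all were. Taken in either direction this was 64.3% of the 28 against 53.6% of all tested genes. At least 2-fold changes were called for 6 genes. EDIL3, ITGB8, ITGB6 and ITGA3 rose (14.3%, against 2.85% of all tested genes), and ITGA1 and ITGB4 fell (7.14%, against 4.79%). The values of the groups did not overlap for 16 of the 28 (57.1%, against 58.8%). The median log2 fold change was 0.155 for the 28 genes and 0.0045 for all tested genes, and no test was made of the family as a whole.

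**Figure D1:**
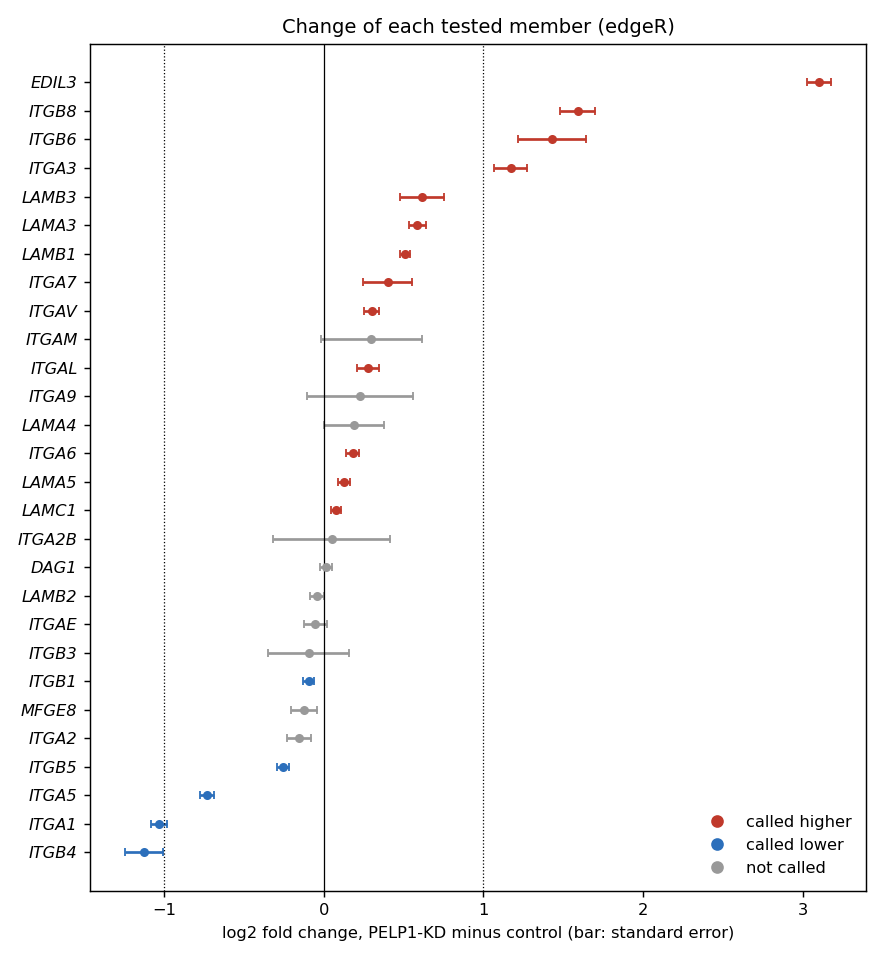
Log2 fold change of each of the 28 tested genes (PELP1-KD minus control, horizontal axis), with its standard error as a bar and the 2-fold limits as dotted lines. EDIL3 lies at 3.10 and ITGB8 at 1.59, whereas ITGB4 at −1.12 and ITGA1 at −1.03 are the only tested members past the lower limit.

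Levels between genes were compared as normalized reads per kb of exon. In control, ITGB1, the β subunit shared by most integrins of adherent cells, had the highest level at 4637 ± 174 per kb (SD, n = 3). It was followed by the laminin β chain gene LAMB1 (2573 ± 19.0), ITGB5 (1578 ± 32.2), the laminin γ chain gene LAMC1 (1425 ± 8.97) and ITGAV (942 ± 45.7). The laminin α chain gene LAMA5 and DAG1 were not separated from each other, with control libraries between 795 and 843 per kb for LAMA5 and between 774 and 811 for DAG1. Nor were LAMB2 (641 to 696) and ITGA6 (628 to 650), or ITGA1 (439 to 467) and ITGA5 (454 to 461). Below these the order was MFGE8 (203 ± 9.96), ITGAE (120 ± 6.76) and ITGAL (89.8 ± 4.13). These genes include both subunits of the αVβ5 and α6β1 integrins and the 3 chains of a laminin of LAMA5, LAMB1 and LAMC1, although RNA levels do not show assembly.

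**Figure D2:**
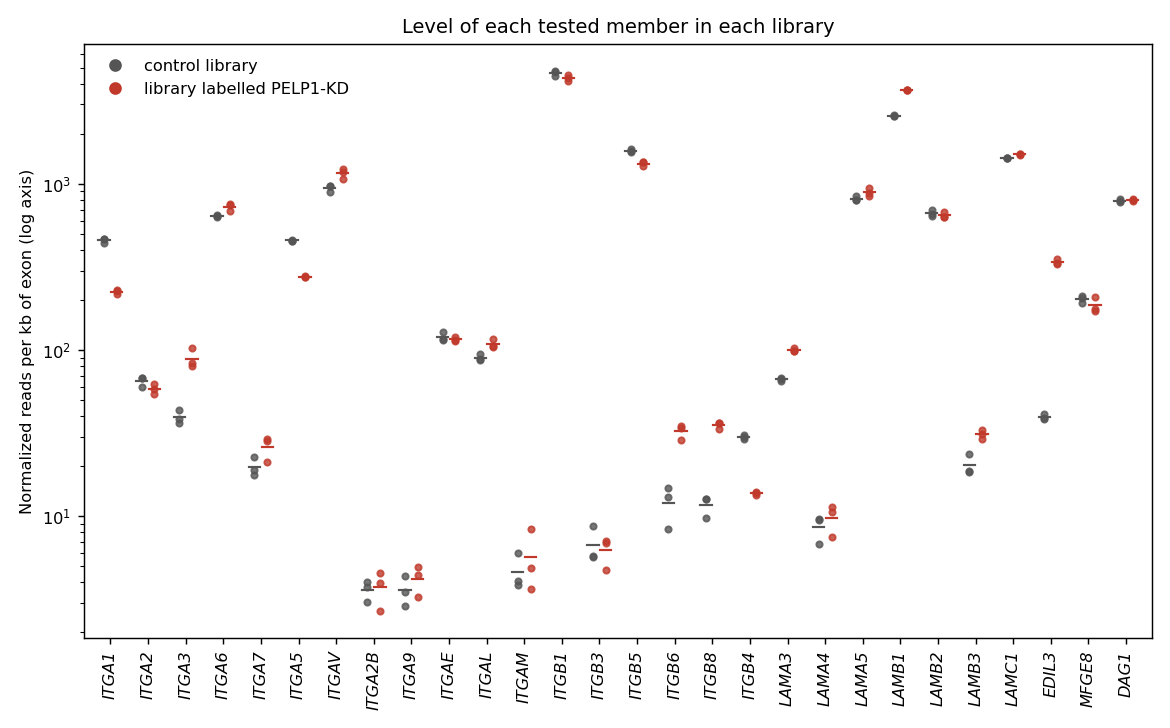
Normalized reads per kb of exon (vertical log axis) of the 28 tested genes, with 1 point for each of the 6 libraries and a line at the mean of each group of 3. Control means span from 3.57 for ITGA9 to 4637 for ITGB1, and the groups stand clearly apart for EDIL3, ITGB8, ITGA1 and ITGA5.

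Sequences before annotated starts are shown here for 4 genes that rose. They were chosen because these genes carry changes described below and because the laminin chain genes LAMA3 and LAMB3 share a motif. RefSeq promoter windows (GRCh38.p14) were matched by symbol for 29 of the 40 genes, ITGA3 and ITGB4 not among them. The 250 bases before the annotated start of each window were read on the gene's strand. Counts (hg19) pool all exons of a gene, and the windows were not placed on the counted positions. A window may therefore lie inside the counted gene, and the start used in these cells was not measured. Capitals mark the AP-1 motif TGANTCA in LAMA3 and LAMB3, and the GC box GGGCGG on either strand in EDIL3 and ITGB8, where neighbouring matches in EDIL3 share bases. The GC box also occurs in the LAMA3 and LAMB3 windows, where it is left in lower case. The windows lie at chr5:84384881-84385130 (minus strand) for EDIL3, chr7:20330650-20330899 (plus strand) for ITGB8, chr18:23872770-23873019 (plus strand) for LAMA3 and chr1:209651375-209651624 (minus strand) for LAMB3.
EDIL3: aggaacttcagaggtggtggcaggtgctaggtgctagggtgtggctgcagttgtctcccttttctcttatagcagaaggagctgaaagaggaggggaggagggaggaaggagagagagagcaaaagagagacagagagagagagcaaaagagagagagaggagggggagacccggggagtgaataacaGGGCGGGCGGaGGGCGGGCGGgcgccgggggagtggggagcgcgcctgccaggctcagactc
ITGB8: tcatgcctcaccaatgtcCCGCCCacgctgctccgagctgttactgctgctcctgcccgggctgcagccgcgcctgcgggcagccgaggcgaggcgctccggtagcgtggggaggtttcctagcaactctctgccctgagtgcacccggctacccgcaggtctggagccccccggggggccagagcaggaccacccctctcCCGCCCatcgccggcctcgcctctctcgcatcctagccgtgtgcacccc
LAMA3: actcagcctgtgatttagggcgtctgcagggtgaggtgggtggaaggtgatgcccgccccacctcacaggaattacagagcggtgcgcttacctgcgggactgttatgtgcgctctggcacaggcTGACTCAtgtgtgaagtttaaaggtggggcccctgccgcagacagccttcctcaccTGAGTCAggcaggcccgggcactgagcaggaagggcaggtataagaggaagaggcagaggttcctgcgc
LAMB3: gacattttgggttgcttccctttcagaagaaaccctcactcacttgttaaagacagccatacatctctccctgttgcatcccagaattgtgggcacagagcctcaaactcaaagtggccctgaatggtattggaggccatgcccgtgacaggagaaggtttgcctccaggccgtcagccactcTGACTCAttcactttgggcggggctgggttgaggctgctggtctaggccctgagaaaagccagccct

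TGANTCA occurred in 2 of the 29 matched genes, LAMA3 and LAMB3, and in 8.06% of the 27305 genes of the whole promoter table. In the 1 window of LAMA3 the matches began 125 and 69 bases before its annotated start. In LAMB3 the match began 67 bases before the annotated start, in 1 of its 3 windows. GGGCGG was found in 17 of the 29 genes, LAMA3 and LAMB3 included, and in 46.2% of all genes. It had 4 matches in EDIL3 and 2 in ITGB8. Of these 17 genes, ITGA5, ITGB1 and ITGB5 were called lower. DAG1, ITGA2, ITGAM, LAMB2 and MFGE8 were not called, ITGA8 was not tested, and the others were called higher. These motifs were looked for after the changes were known, and a match describes the letters only.

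Among the secreted integrin ligands, EDIL3 rose and MFGE8 was not called. EDIL3 (hg19 chromosome 5, 83238126 to 83680611, minus strand) had 116, 122 and 114 normalized reads in control and 1043, 987 and 984 in PELP1-KD. Every PELP1-KD library lay above every control library, at an 8.57-fold higher level (log2 fold change 3.10, SE 0.08, adjusted p = 3.49e-17 from edgeR). MFGE8, best known for bridging apoptotic cells to phagocytes, had 407, 382 and 422 normalized reads in control and 353, 342 and 416 in PELP1-KD. Its groups overlapped (log2 fold change −0.12, SE 0.08, adjusted p = 0.231), and the gene was called lower only without PELP1-KD replicate 3 (adjusted p = 0.0328). Per kb, EDIL3 stood at 0.195 ± 0.0162 of the MFGE8 level in control and at 1.83 ± 0.215 of it in PELP1-KD (SD, n = 3 each), so the order of these related ligands was exchanged.

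The αV subunit and its β partners changed in different directions. ITGAV had 6947, 7020 and 6416 normalized reads in control and 8857, 8532 and 7726 in PELP1-KD, without overlap (log2 fold change 0.30, SE 0.05, adjusted p = 1.68e-05). ITGB5, its most abundant partner after ITGB1, fell from 5208, 5425 and 5327 to 4301, 4546 and 4540 (log2 fold change −0.25, SE 0.04, adjusted p = 1.24e-05). The ratio of ITGAV to ITGB5 per kb rose from 0.598 ± 0.0311 to 0.879 ± 0.0836 (SD, n = 3 each), without overlap between the groups.

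ITGB8 (chromosome 7, 20370725 to 20455382, plus strand), whose αV dimer binds and activates latent TGF-β, had 111, 112 and 85.8 normalized reads in control and 320, 320 and 292 in PELP1-KD. The libraries of the groups were far apart, with a 3.01-fold higher level (log2 fold change 1.59, SE 0.11, adjusted p = 3.13e-10). ITGB6, an epithelial β subunit that also activates latent TGF-β, rose by 1.43 on the log2 scale (SE 0.21, adjusted p = 1.14e-05), with 21 to 37 reads in control libraries and 59 to 84 in PELP1-KD. ITGB3, the β subunit of the vitronectin receptor, stayed between 20 and 45 reads and was not called (log2 fold change −0.09, SE 0.26). ITGB5 still made up 94.7% ± 0.395 of the summed reads per kb of these 4 β subunits in PELP1-KD, compared with 98.1% ± 0.194 in control (SD, n = 3 each). ITGB8 went from 0.73% ± 0.105 to 2.54% ± 0.183 and ITGB6 from 0.749% ± 0.202 to 2.33% ± 0.262.

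The collagen receptor gene ITGA1 and the fibronectin receptor gene ITGA5 were lower. ITGA1, the α subunit of a receptor for basement membrane collagen, lies at 52084136 to 52249485 on the plus strand of chromosome 5. It had 2240, 2225 and 2105 normalized reads in control and 1104, 1079 and 1037 in PELP1-KD, or 49% of control (log2 fold change −1.03, SE 0.05, adjusted p = 5.87e-13). Of its 4796 exon bases, 113 are shared with PELO on the same strand, so reads there were divided between the genes. ITGA2, which encodes the other collagen-binding α subunit expressed here, starts 35.7 kb further along. Its values of 534, 531 and 473 in control and 492, 459 and 430 in PELP1-KD overlapped (log2 fold change −0.16, SE 0.08, adjusted p = 0.0887). The gene passed the threshold once replicate number was a block (adjusted p = 0.0397), without control replicate 3 (0.041) or without PELP1-KD replicate 1 (0.0397). The ratio of ITGA1 to ITGA2 per kb fell from 7.02 ± 0.245 to 3.83 ± 0.14 (SD, n = 3 each) without overlap. Ratios of genes are given as descriptions, without a test. An exact permutation test of 3 against 3 libraries cannot go below p = 0.1.

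ITGA5 (chromosome 12, 54789045 to 54813050, minus strand), the α subunit of the main fibronectin receptor, was among the tightest measurements. It had 1936, 1928 and 1958 normalized reads in control and 1164, 1167 and 1180 in PELP1-KD. The level was 60.3% of control (log2 fold change −0.73, SE 0.04, adjusted p = 4.64e-11), and the distance between the groups exceeded the range within either many times over.

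The laminin-binding α subunits moved the other way. ITGA3 (chromosome 17, 48133340 to 48167849, plus strand) had 184, 219 and 194 normalized reads in control and 419, 400 and 520 in PELP1-KD, a 2.25-fold rise (log2 fold change 1.17, SE 0.10, adjusted p = 9.4e-09). PELP1-KD replicate 3 was the highest library, and without it the rise was 1.05 on the log2 scale. ITGA6, the most abundant of them, rose from 3778, 3738 and 3651 to 4393, 4307 and 3964 (log2 fold change 0.18, SE 0.04, adjusted p = 0.0013). ITGA7, known from muscle, was called higher by 0.40 on the log2 scale (SE 0.15, adjusted p = 0.0351) although its groups overlapped. This call was lost without control replicate 2 (adjusted p = 0.0977), control replicate 3 (0.119), PELP1-KD replicate 2 (0.139) or PELP1-KD replicate 3 (0.0955), and in DESeq2 (0.105).

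ITGB4 (chromosome 17, 73717516 to 73753899, plus strand), the β subunit that pairs with the α6 subunit and anchors epithelial cells through hemidesmosomes, fell. It had 181, 178 and 188 normalized reads in control and 81.9, 85.2 and 83.9 in PELP1-KD, or 45.9% of control (log2 fold change −1.12, SE 0.12, adjusted p = 1.11e-07). The groups were well separated. Together with the higher ITGA6, the ratio of ITGB4 to ITGA6 per kb went from 0.0468 ± 0.00206 to 0.019 ± 0.00121 (SD, n = 3 each). ITGB1 changed little, from 19493, 19212 and 18148 normalized reads to 18490, 17768 and 17017 (log2 fold change −0.09, SE 0.04, adjusted p = 0.0336), with overlapping groups. Its call was lost with library totals alone (adjusted p = 0.0823) and without control replicate 1 (0.187), control replicate 2 (0.125), PELP1-KD replicate 2 (0.0987) or PELP1-KD replicate 3 (0.0632). With the replicate block it held (0.00011).

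Over the 12 α subunits that can pair with ITGB1, the summed level hardly moved, at 2625 ± 75.8 normalized reads per kb in control and 2566 ± 114 in PELP1-KD (SD, n = 3 each, overlapping groups). Its composition differed. ITGA1 went from 17.4% ± 0.109 to 8.73% ± 0.12 of the sum and ITGA5 from 17.4% ± 0.649 to 10.7% ± 0.565, whereas ITGA6 went from 24.4% ± 0.334 to 28.3% ± 0.299 and ITGAV from 35.9% ± 0.728 to 45.2% ± 1.15. These are shares of RNA and do not count assembled receptors.

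**Figure D3:**
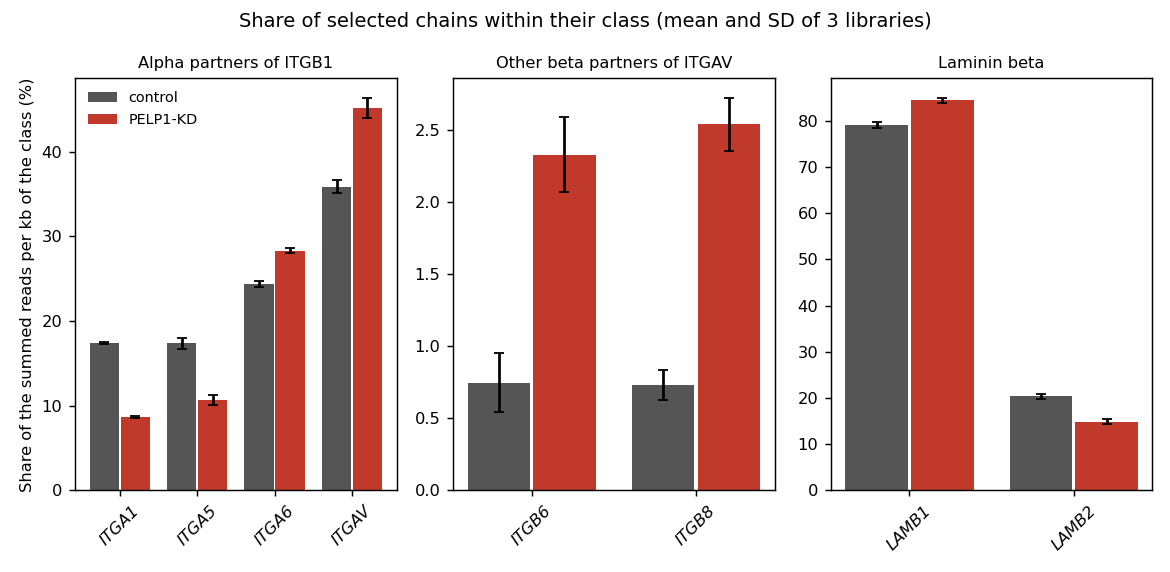
Share (%, vertical axes, which differ between panels) of selected chains in the summed reads per kb of their class, as mean and SD of the 3 libraries of each group. ITGA1 and ITGA5 take smaller shares of the ITGB1 partners in PELP1-KD, and LAMB1 goes from 79% to 84.4% of the laminin β chains.

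Most integrin subunits of blood cells were sparse, but ITGAL and ITGAE were not. ITGAL, the α subunit of a leukocyte adhesion receptor, had 492, 457 and 453 normalized reads in control and 551, 540 and 608 in PELP1-KD (log2 fold change 0.28, SE 0.07, adjusted p = 0.00271). Its partner ITGB2 had at most 6 reads in any library, and the leukocyte marker PTPRC had a mean of 2.83 normalized reads in control and 3.28 in PELP1-KD. Of the 6 leukocyte markers, CD68 was called higher and CD14 lower, and their sum was 1460 to 1640 in control and 1948 to 2099 in PELP1-KD. The part of other cells in the ITGAL value was not tested. ITGAE, found on lymphocytes of epithelia, had 445, 452 and 493 normalized reads in control and 438, 460 and 444 in PELP1-KD and was not called (log2 fold change −0.05, adjusted p = 0.57). ITGAM, ITGA9 and the platelet subunit ITGA2B had between 9 and 40 reads in each library and were not called, with adjusted p values from 0.447 to 0.919.

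Of the 7 laminin genes given here that were tested, 5 were called higher (71.4%, against 26.8% of all tested genes) and 0 lower (against 26.7%) at an adjusted p below 0.05 in edgeR. At an unadjusted p below 0.05 the number lower was also 0, and likewise in DESeq2. LAMC1, the γ chain gene of most laminins, had 11195, 11206 and 11323 normalized reads in control and 11871, 11720 and 11936 in PELP1-KD (log2 fold change 0.08, SE 0.03, adjusted p = 0.0459). This small rise lost its call without any 1 of control replicates 1, 2 and 3 (adjusted p = 0.14, 0.131 and 0.0503) or PELP1-KD replicates 1 and 2 (0.0657 and 0.09), and in 5 of the alternatives of normalization, tool and filter. With the replicate block it held (adjusted p = 0.00259).

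LAMA3 and LAMB3, which encode an α and a β laminin chain of epithelia, hold the AP-1 motifs printed above. LAMA3 had 694, 727 and 716 normalized reads in control and 1051, 1062 and 1094 in PELP1-KD, with a wide gap between the groups (log2 fold change 0.59, SE 0.05, adjusted p = 1.92e-08). LAMB3 had 82.5, 84.3 and 107 in control and 131, 149 and 140 in PELP1-KD, also without overlap (log2 fold change 0.62, SE 0.14, adjusted p = 0.000774). The ratio of LAMA3 to LAMB3 overlapped between groups (3.32 ± 0.442 and 3.21 ± 0.202, SD, n = 3 each).

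The abundant laminin chains changed unequally. LAMB1 (chromosome 7, 107564246 to 107643804, minus strand) had 14932, 15048 and 15154 normalized reads in control and 21454, 21307 and 21522 in PELP1-KD. It rose 1.42-fold (log2 fold change 0.51, SE 0.03, adjusted p = 1.39e-11), and the SDs of its groups were 111 and 110 normalized reads. LAMA5 rose from 9081, 9126 and 9629 to 9708, 10019 and 10703 (log2 fold change 0.13, SE 0.04, adjusted p = 0.00858). LAMB2, an alternative β chain gene, was not called, with 3724, 3802 and 4044 in control and 3651, 3656 and 3935 in PELP1-KD (log2 fold change −0.04, SE 0.04, adjusted p = 0.447). LAMB1 thus went from 79% ± 0.642 to 84.4% ± 0.507 of the laminin β chains, and its ratio to LAMC1 per kb rose from 1.81 ± 0.00604 to 2.44 ± 0.0104 (SD, n = 3 each). LAMA4, a chain of vessel and mesenchymal laminins, stayed between 48 and 83 reads and was not called (log2 fold change 0.19, SE 0.19, adjusted p = 0.421).

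DAG1 gave the value closest to no difference. It had 5114, 5036 and 5279 normalized reads in control and 5147, 5236 and 5199 in PELP1-KD, fully overlapping (log2 fold change 0.01, SE 0.04, adjusted p = 0.762). In a list of 28 genes of the dystrophin complex and of the enzymes that glycosylate dystroglycan, 23 were tested, with 2 higher, 5 lower and a median log2 fold change of 0.04. The share called, 30.4%, was below the 53.6% of all tested genes. This split was 4 higher and 3 lower with library totals alone, 3 and 3 in DESeq2, and 5 and 6 with the replicate block. GYLTL1B, also called LARGE2, extends the laminin-binding sugar chain of dystroglycan, and it fell from 1192, 1185 and 1286 normalized reads to 252, 302 and 308 (log2 fold change −2.09, SE 0.07, adjusted p = 7.62e-15). Its paralog LARGE was not called (log2 fold change −0.08). SSPN, which encodes sarcospan of the same membrane complex, fell from 128, 137 and 128 to 52.2, 50.2 and 42.9 (log2 fold change −1.44, SE 0.15, adjusted p = 1.01e-07).

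Other genes of the adhesion machinery moved both ways. Of 30 tested genes for further matrix ligands, 11 were higher and 14 lower (83.3% called, against 53.6% of all tested genes), with a median log2 fold change of −0.11. Of the fibroblast markers, whose sum was higher in PELP1-KD as given above, COL1A1 (1.44), LUM (0.92) and COL1A2 (0.51) were called higher, PDGFRB was called lower (−2.13) and COL3A1 was not called, and their part in the matrix values was not tested. NPNT, which encodes nephronectin, a ligand of the integrin of ITGA8 and ITGB1, rose from 3050, 3058 and 2954 normalized reads to 8085, 7748 and 7469 (log2 fold change 1.36, SE 0.04, adjusted p = 3.7e-16), while ITGA8 had 0 reads. SPP1, the RGD ligand osteopontin, rose from 289, 330 and 314 to 629, 673 and 663 (log2 fold change 1.08, SE 0.07). Every PELP1-KD library was above every control library for both. CTGF, a matrix protein that binds several integrins, fell from 5425, 5339 and 5277 to 2472, 2321 and 2439 (log2 fold change −1.15, SE 0.04), and the basement membrane protein gene SMOC1 fell to 45.5% of control (log2 fold change −1.13, SE 0.08). The nidogen genes NID1 and NID2, whose products link laminin to collagen in the basement membrane, were called lower at −0.68 and −0.86. In the same list NTN4 (0.595) and FBLN1 (0.594) were called higher, and HSPG2 (−0.056) and AGRN (−0.015) were not called.

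Inside the cell, 41 genes for proteins of integrin adhesions were tested, with 13 higher, 16 lower (70.7% called, against 53.6% of all) and a median log2 fold change of −0.04. NEDD9, a scaffold of focal adhesion signaling, fell from 995, 1003 and 1035 normalized reads to 451, 425 and 399 (log2 fold change −1.25, SE 0.06, adjusted p = 2.11e-12). The talin gene TLN1, whose product activates integrins from within, was called lower at a log2 fold change of −0.12, and TLN2 at −0.33. The kindlin genes FERMT1 and FERMT2 were called in opposite directions at 0.67 and −0.31. Their levels were unlike, at 11 normalized reads per kb for FERMT1 and 917 for FERMT2 in control, and FERMT3 was not called. Of 19 membrane partners tested, 8 were higher and 8 lower (84.2% called, against 53.6% of all), with a median of 0.02. CD9, a tetraspanin that associates with integrins, had 82.5, 48.9 and 66.8 normalized reads in control against 559, 573 and 560 (log2 fold change 3.09, SE 0.12, adjusted p = 2.32e-14). CD44, the hyaluronan receptor, rose from 546, 602 and 560 to 1860, 1718 and 1836 (log2 fold change 1.67, SE 0.06, adjusted p = 4.12e-15). For both genes the groups were widely separated. BCAM, a laminin receptor outside the integrin family, was called lower at −0.20, and CD151, a tetraspanin partner of the laminin-binding integrins, was not called at −0.08.

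**Figure D4:**
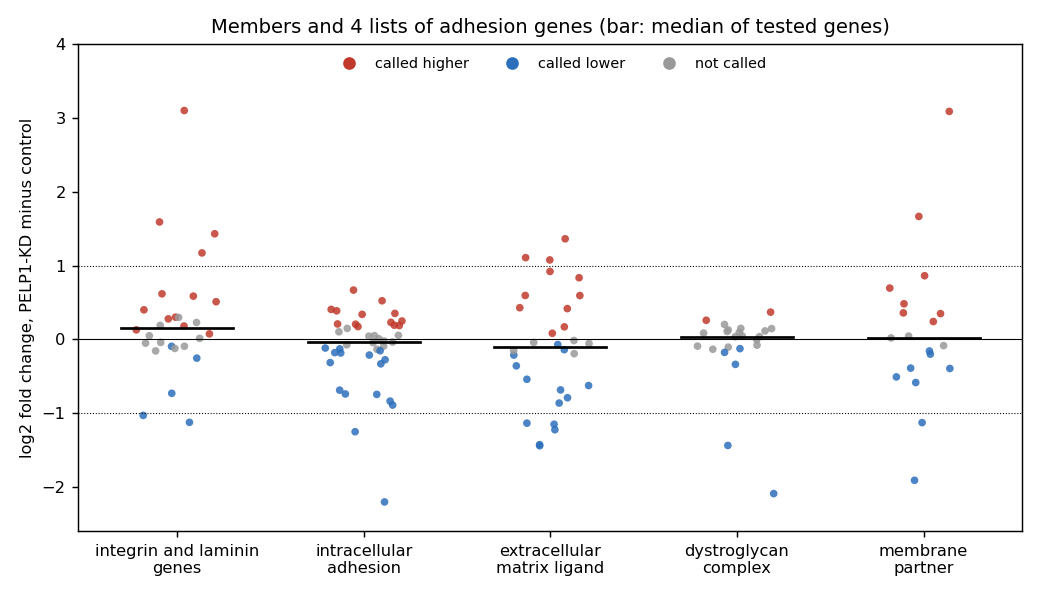
Log2 fold change (PELP1-KD minus control, vertical axis) of the 28 tested integrin and laminin genes and of the tested genes in 4 lists, colored by call, with the median of each as a bar and the 2-fold limits as dotted lines. The medians lie between −0.11 and 0.155, and the lists hold genes called in both directions.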

How the data were processed

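The authors deposited estimated counts per gene, 1 table per library, without normalization. By the paper's methods the reads were aligned to hg19 by TopHat2 and assigned to RefSeq genes by HTSeq. The submitters' processing notes name HISAT2, SAMtools and featureCounts, and the file headers name featureCounts v1.5.0-p1, run with strand on exons, a minimum mapping quality of 2 and fractional sharing of reads with several places or genes. Between 10.6% and 13.3% of values in a library were not whole.

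Counts were rounded and fitted with edgeR 4.0.16 in R 4.3.3 (filterByExpr, TMM, robust glmQLFit, glmQLFTest), with Benjamini-Hochberg adjustment over 14537 genes and thresholds of 0.05 and 2-fold. Each SE was taken as the size of the log2 fold change divided by the root of F. Levels per kb divide by the exon length in the tables. The median SE was 0.063. The fit was tested on simulated data.

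1 gene that the symbols cover is not reported here and was left out of the counts of the family, though not of the fit. The family and the 4 lists were chosen with earlier results of these data known. Values in every library are given for genes called with an absolute log2 fold change of at least 0.5 and a mean of 100 or more normalized reads in 1 group, and for EDIL3, MFGE8 and DAG1, along with other members where space allowed. From each list, the genes called, changed at least 2-fold and with at least 100 normalized reads were named (at most 4 per direction). NID1, NID2, NTN4, FBLN1, HSPG2, AGRN, TLN1, TLN2, FERMT1, FERMT2, FERMT3, BCAM, CD151 and LARGE were picked after their values were seen. Of the lists, 2 symbols were matched through older names and 2 were not matched.

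Alternatives were DESeq2 size factors, upper-quartile scaling or library totals alone in edgeR, DESeq2 1.42.0, no filter, at least 10 reads in every library, an adjusted p below 0.01, replicate number as a block, and leaving out 1 library at a time. Libraries with the same number in both groups were treated as pairs in the replicate block alone, and the main fit had no block. Over 6370 genes the deviations of these pairs from the group mean correlated at 0.336, 0.247 and 0.666. Genes are not independent replicates, and a pair of unlike numbers (control 2 with PELP1-KD 1) gave 0.418. Control 1 with PELP1-KD 2 gave 0.244, so these correlations do not settle the pairing.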

Additional observations from a re-analysis of the deposited data

How the results depend on the processing

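The numbers of integrin and laminin genes called stayed within 1.5 times the reported ones in all alternatives, from 15 to 19 for any change and 6 for a 2-fold change in each fit. The replicate block raised the calls of the dystroglycan list from 7 to 11 and added ITGA2. It changed no other call of a tested integrin, laminin, EDIL3, MFGE8 or DAG1 value. Calls of ITGA7, ITGB1 and LAMC1 depended on single libraries, as given above, and the cause was not tested. Each held with the replicate block (adjusted p = 0.0277, 0.00011 and 0.00259 in edgeR), which assumes that libraries of the same number are pairs. With each library left out, the direction turned for ITGA2B (−0.10 to 0.25), ITGAM (−0.12 to 0.54), ITGB3 (−0.20 to 0.14) and DAG1 (−0.001 to 0.037), none of them called. Genes with under 50 reads a library, such as ITGB3 and ITGA2B, had standard errors above 0.2.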
